A study of Danio rerio with 10 samples.

Results

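Within a single study of whole zebrafish embryos (Danio rerio), RNA pools with the same labelled age of 33 hours post fertilization (hpf) differed in composition, and one such difference lay between pools numbered 2 and 3 and pools numbered 4 and 6. The comparison holds 8 of the 10 libraries: wt 2, wt 3, mutant 2 and mutant 3 on one side and wt 4, wt 6, mutant 4 and mutant 6 on the other, 4 a side. The sides were chosen from the readout itself, because libraries 2 and 3 resembled each other in these same counts, as did libraries 4 and 6. The differences between the sides are therefore a description of these pools, no p-value is given for any gene, and none supports the grouping. Number 1, with a library of each genotype, stood apart from both sides and was left out of the comparison, so its libraries serve only as values set beside it.

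Each pool held 10 embryos. The mutant pools were rbpms2a-/-; rbpms2b-/-, mutated on both alleles of each of these RNA-binding protein genes, and were recognised by eye. The wt pools were control siblings sorted by eye, which can include carriers. Each side held both genotypes in equal number, genotype was kept as a block, and no difference between genotypes was tested. PolyA RNA was read in pairs after strand-specific library preparation. The meaning of the numbers is not given in the sources used here, so a clutch, an hour of collection and a day of handling or of library preparation cannot be told apart as sources of a difference between numbers.

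On the second day of zebrafish development many tissues change within hours. Myotomes fill with contractile protein, lens fibre cells accumulate crystallins, neurons leave the cell cycle, and the first photoreceptor precursors form in the pineal organ before those of the retina. The notochord sheath lays down collagen, pigment cells darken, the yolk syncytial layer packs yolk lipid into lipoproteins, and the hatching gland stores the proteases that later dissolve the egg envelope. In RNA from a whole embryo, fewer cells of a type and less RNA per cell cannot be told apart.

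Total counts were 30.7 to 35.6 M (M, 1000000 counts) in numbers 2 and 3 and 21.51 to 35.97 M in numbers 4 and 6, with wt 6 the smallest library. The means of 32.6 ± 2.19 and 30.4 ± 6.66 M (SD, n = 4 a side) did not differ beyond their spread (exact permutation test, two-sided, p = 0.657, smallest possible p of 70 assignments 0.0286). The test took the 8 libraries as independent, although each number gave a wt and a mutant library. Reads shared between similar genes had been divided, and 17.8 to 21.6% of the counts of a library were not whole. Of 81 cell type markers in the table, 72 reached 1 CPM (a count per 1000000 counts) in all 10 libraries. For this check the CPM were not scaled further, and gene IDs of one symbol were summed. Those that did not reach it were the markers of germ cells and of eggs and 1 marker each of macrophages, the yolk syncytial layer, the liver and the exocrine pancreas. All other CPM are scaled by TMM, the trimmed mean of M-values.

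Libraries of one number resembled each other across genotypes, with the mean of each genotype taken out. Across 13234 genes with a mean of at least 5 CPM, deviations from the mean of each genotype correlated at 0.70 to 0.78 between the wt and the mutant library of a number. Between numbers 2 and 3 the correlation was 0.60 to 0.66, and between numbers 4 and 6 it was 0.27 to 0.42. Across the sides it was -0.80 to -0.48, and between number 1 and the other numbers -0.37 to -0.037. Taking out the mean of each genotype and choosing the sides by resemblance both push values across the sides below 0. These correlations are across genes of one table, so they describe the libraries and carry no p. With the genotype means left in, wt 2 and wt 3 were a median absolute log2 value of 0.081 apart. That was less than the distance of wt 2 from mutant 2 (0.115) and of wt 3 from mutant 3 (0.087). The 2 sides were not equally tight: numbers 2 and 3 differed by a median absolute log2 value of 0.0775 with 6 genes at least 2-fold apart, and numbers 4 and 6 by 0.109 with 39 such genes. Pairs of numbers from opposite sides differed by 0.170 to 0.222, with 141 to 225 genes at least 2-fold apart. Number 1 was 0.121 to 0.163 from the other numbers. The first principal component, with 51.1% of the variance over genes, separated the sides, and number 1 had scores near 0 on it; the second, with 16.5%, set number 1 apart.

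**Figure D1:**
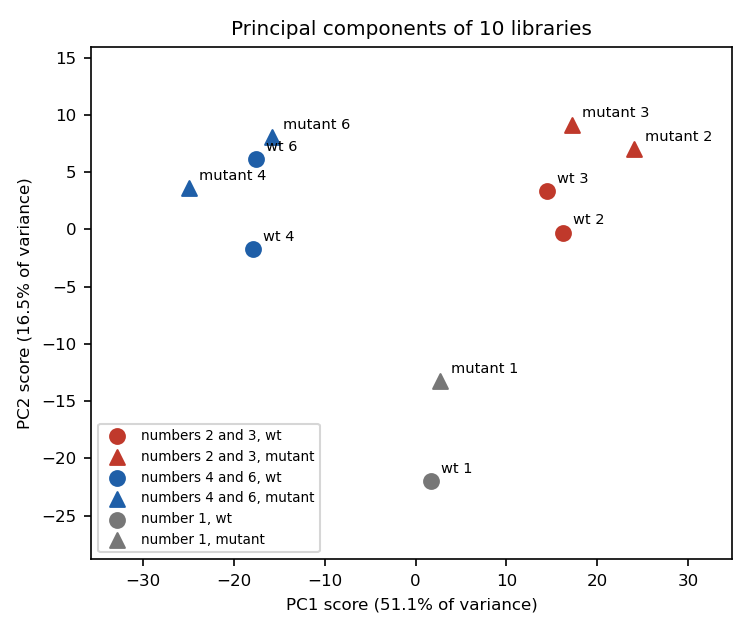
Scores of the 10 libraries on the first and second principal components of log2 CPM over 13234 genes; colour gives the side, circles are wt and triangles mutant. All 4 libraries of numbers 2 and 3 have positive scores on the first component and all 4 of numbers 4 and 6 negative ones, while wt 1 and mutant 1 lie between them and lowest on the second.

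Differences between the sides ran through a large share of the table. For 3359 genes all 4 libraries of numbers 2 and 3 lay above all 4 of numbers 4 and 6, 16.2% of the 20757 genes tested, and for 3738 genes they all lay below, 18% of those tested. With a log2 difference of at least 1 in addition, 292 genes were higher in numbers 2 and 3 (1.41%) and 362 were lower (1.74%). An edgeR fit with genotype as a block put 7195 genes, 34.7%, past an adjusted 0.05, of which 3368 (16.2% of the genes tested) were higher and 3827 (18.4%) lower in numbers 2 and 3. The sides were chosen on these values, so these shares are only the background against which the gene groups below are read, and nothing is inferred from them. On the deposited FPKM scale the split of calls leaned the other way, with 3749 higher and 2815 lower calls (57.1% higher against 46.8% on counts, at log2(FPKM + 1)). Without number 2 the count of calls was 3457, and without number 3 it was 4175. Most differences were small: the median absolute log2 difference of all tested genes was 0.227, and the middle of the signed values was 0.0070. Fitted to each genotype alone, the log2 differences correlated at 0.846 over 13234 genes, a description across genes that share the choice of sides.

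The difference moved with gene length, which is given here because it touches several groups below. In the shortest decile of genes (the genes were divided by length into 10 classes of equal size) the median log2 difference (numbers 2 and 3 minus numbers 4 and 6) was 0.15, and it went down in each further decile to -0.18 in the longest. The share of genes with all 4 libraries of numbers 2 and 3 lower was 7.23% in the shortest decile and 40.8% in the longest, and the share with all 4 higher was 19.8% and 5.78%. Among genes of at least 5 CPM the medians at the 2 ends were 0.14 and -0.14 in wt alone and 0.25 and -0.21 in mutant alone. Averaged over the genotypes, the slope was smaller within the sides: the shortest and longest deciles had medians of 0.085 and -0.033 for number 2 minus number 3, and -0.016 and 0.061 for number 4 minus number 6. The last pair averages opposite trends in the genotypes. As medians of deviations from the mean of the genotype, the shortest and longest deciles were at -0.20 and 0.16 in mutant 4 and at -0.058 and 0.039 in mutant 6, but at -0.0027 and 0.083 in wt 4 and at -0.097 and 0.088 in wt 6. A length-corrected value, from a fit in which each library's trend with length was removed, is given below for many of the groups. Only log2 differences and their medians are given with this correction. Counts of genes wholly higher or wholly lower are given without it.

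**Figure D2:**
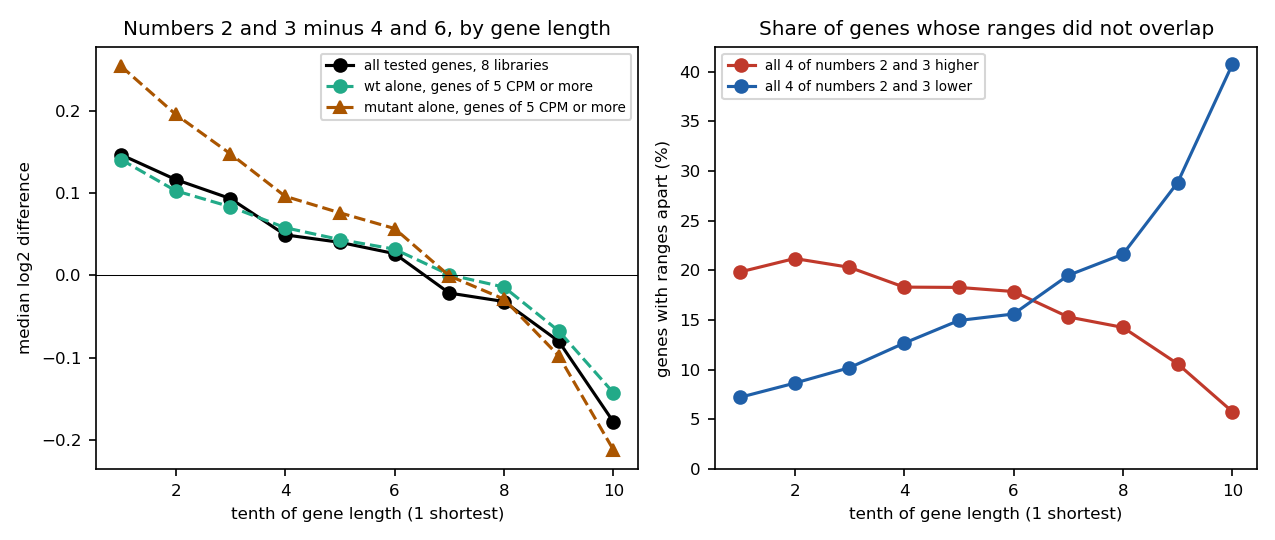
Left, the median log2 difference, numbers 2 and 3 minus numbers 4 and 6, by decile of deposited gene length for all tested genes and, at 5 CPM or more, for each genotype alone. Right, the percentage of genes in each decile whose 4 libraries of numbers 2 and 3 all lie above or all below; the first falls from 19.8% to 5.78% and the second climbs from 7.23% to 40.8%.

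Several genes of the eye and the pineal organ, with crx first among them, were far lower in numbers 2 and 3 than in numbers 4 and 6. Values are given in the order wt 2, wt 3, mutant 2 and mutant 3, then wt 4, wt 6, mutant 4 and mutant 6. The gene crx, a homeobox factor of photoreceptor precursors and the pineal organ, was at 1.99, 1.89, 2.28 and 2.47 CPM in numbers 2 and 3 and at 16.2, 13.6, 17.5 and 16.8 CPM in numbers 4 and 6. No library of one side came near the other, and the log2 difference of -2.90 ± 0.11 (SE) was the lowest of any named gene with a mean of at least 5 CPM. The mean of crx was 7.44-fold higher in numbers 4 and 6. Each SE, here and below, takes the 8 libraries as independent and is thus too small. Its relative otx5, which acts in the pineal organ and retina, stood at 2.02, 1.503, 1.39 and 1.60 CPM against 10.3, 6.85, 11.06 and 9.34 CPM (-2.52 ± 0.17). Within numbers 4 and 6, wt 6 was the lowest library for both crx and otx5. For atoh7, the proneural factor needed for retinal ganglion cells, the levels were 7.03, 5.92, 3.92 and 5.22 and 22.6, 17.9, 25.3 and 17.5 CPM (-1.93 ± 0.17), and for tfap2d, an AP-2 transcription factor, 3.66, 3.88, 3.86 and 4.01 and 15.7, 11.13, 15.8 and 12.9 CPM (-1.86 ± 0.12). In tfap2d the 4 low libraries were within a narrow band, so the distance between the sides far exceeded the spread within numbers 2 and 3.

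The photoreceptor and pineal list as a whole did not follow crx and otx5. Of its 24 tested members, 3 lay wholly higher in numbers 2 and 3 and 3 wholly lower, and the median log2 difference was 0.11, beside 0.0070 for all tested genes. The median was -0.13 in wt alone and 0.17 in mutant alone. Cone arrestin arr3b was on the opposite side to crx, at 0.637, 0.631, 0.601 and 0.737 CPM in numbers 2 and 3 and 0.365, 0.340, 0.141 and 0.382 CPM in numbers 4 and 6 (1.101 ± 0.36). So was pde6h, the inhibitory subunit of the cone phosphodiesterase, at 0.969, 1.14, 0.949 and 0.641 and 0.393, 0.583, 0.311 and 0.555 CPM (1.03 ± 0.30). These 2 genes of phototransduction were named because their ranges lay apart, so their division into the same 4 libraries was set by that choice.

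**Figure D3:**
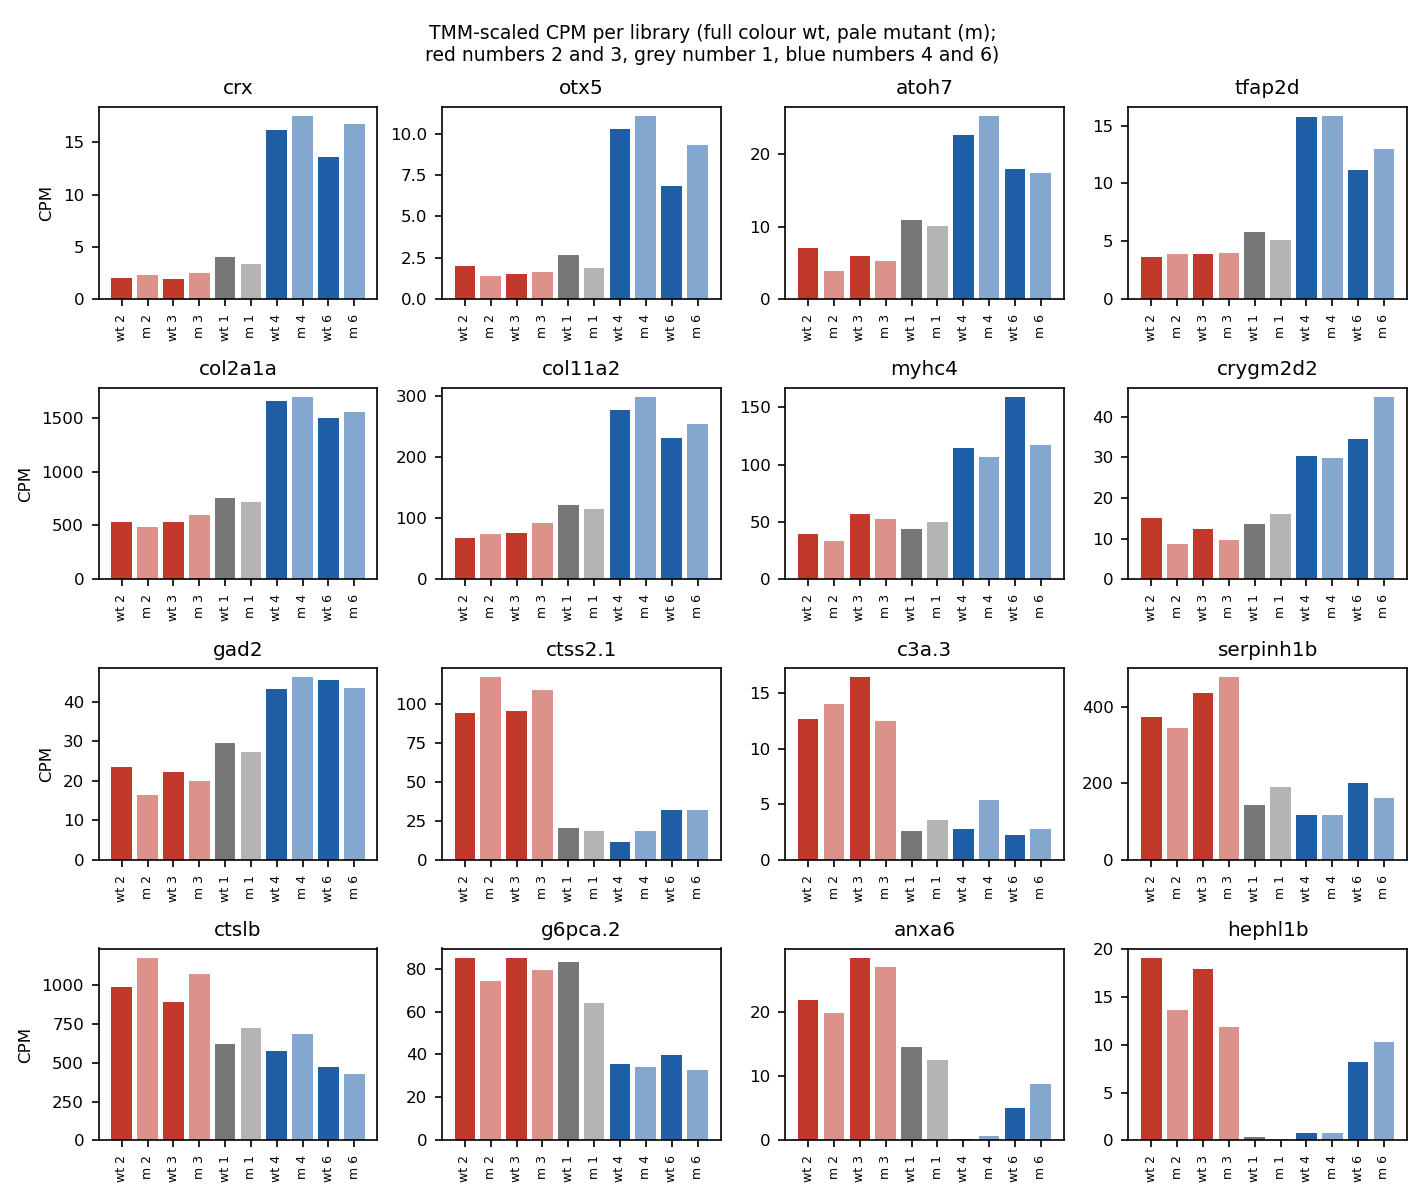
TMM-scaled CPM of 16 genes in each of the 10 libraries, a bar for each library; red, numbers 2 and 3; grey, number 1; blue, numbers 4 and 6; full colour wt and pale mutant. For crx the 4 red bars reach at most 2.47 CPM and the 4 blue bars at least 13.6 CPM, while for anxa6 and hephl1b the 2 blue numbers differ from each other.

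Lens genes were lower in numbers 2 and 3 throughout most of their list. Of 38 tested crystallin and lens membrane genes, 29 had all 4 libraries of numbers 2 and 3 below all 4 of numbers 4 and 6 and 0 had them above, beside 18% and 16.2% of all genes. The median log2 difference was -0.71 (-0.44 in wt alone, -0.89 in mutant alone, -0.80 after length correction). The gamma crystallin crygm2d2 was at 14.98, 12.5, 8.80 and 9.65 CPM in numbers 2 and 3 and at 30.2, 34.5, 29.9 and 44.9 CPM in numbers 4 and 6 (-1.61 ± 0.20). The gamma crystallins crygm2d16 (-1.56 ± 0.12), crygm2d5 (-1.49 ± 0.14) and crygm2d14 (-2.004 ± 0.42) lay on the same side. Within numbers 4 and 6, number 6 was the higher for crygm2d14, at 12.8 and 13.02 CPM against 5.13 and 5.89 CPM in number 4. Counts of the gamma crystallins were mostly not whole, since their reads are shared among near-identical copies, and single members are uncertain. The abundant beta crystallins crybb1 and crybb1l1, structural proteins of the lens fibre, were at 273, 229.6, 145 and 215 against 325, 368, 393 and 407 CPM (-0.81 ± 0.19) and at 426, 374, 265 and 367 against 545, 605, 641 and 619 CPM (-0.76 ± 0.13). Mutant 2 was the lowest library for both. The lens membrane gene lim2.5, with 2.08, 1.47, 1.93 and 1.76 CPM against 4.94, 4.96, 4.90 and 6.46 CPM (-1.54 ± 0.16), completed the group. The lactase-like gene lctla was also among the lowest of the named genes, at 2.41 ± 0.596 against 9.05 ± 2.21 CPM (mean ± SD, n = 4; -1.90 ± 0.20).

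Most genes of the fast and slow skeletal muscle list were lower in numbers 2 and 3 as well. Of 61 tested members, 45 were wholly lower and 1 wholly higher, with a median log2 difference of -0.65 (-0.61 in wt alone, -0.66 in mutant alone, -0.61 after length correction). The muscle AMP deaminase ampd1 was at 1.27, 0.631, 0.506 and 0.737 CPM in numbers 2 and 3 and 4.01, 6.17, 2.89 and 8.05 CPM in numbers 4 and 6 (-2.72 ± 0.41). Both libraries of number 6 exceeded both of number 4, so the 2 numbers of that side differed too. The myosin heavy chain myhc4 had 39.6, 56.6, 33.8 and 52.2 against 115, 159, 106 and 117 CPM (-1.44 ± 0.19), and in numbers 2 and 3 both libraries of number 3 were above both of number 2. The fast troponin I gene tnni2b.2 was at 4.35, 5.47, 5.28 and 5.93 and 12.001, 13.5, 11.2 and 16.0 CPM (-1.32 ± 0.13), and atp2a1l, a calcium pump of the sarcoplasmic reticulum, at 75.04, 101, 65.3 and 78.5 and 165, 213, 185 and 229 CPM (-1.31 ± 0.16). The most abundant members moved less on the log scale: the alpha actin actc1b was at 7046 ± 354 CPM in numbers 2 and 3 and 11997 ± 1086 CPM in numbers 4 and 6 (-0.77 ± 0.064), and myhz1.1, a fast myosin heavy chain, at 7032 ± 1914 and 11846 ± 2189 CPM (-0.75 ± 0.24). Counts of these 2 genes were not whole in any library, so their levels are uncertain. The slow muscle markers of the marker check overlapped between the sides, while its fast muscle markers were all wholly lower. In CPM not scaled further, smyhc1 was at 1281 to 1577 against 1358 to 1469 CPM. For smyhc2 the ranges were 27.5 to 36.4 against 27.3 to 37.1 CPM, and for tnnc1b 118 to 141 against 99.2 to 127 CPM. The 15 muscle progenitor genes had a median of -0.085, with 2 wholly higher and 1 wholly lower.

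**Figure D4:**
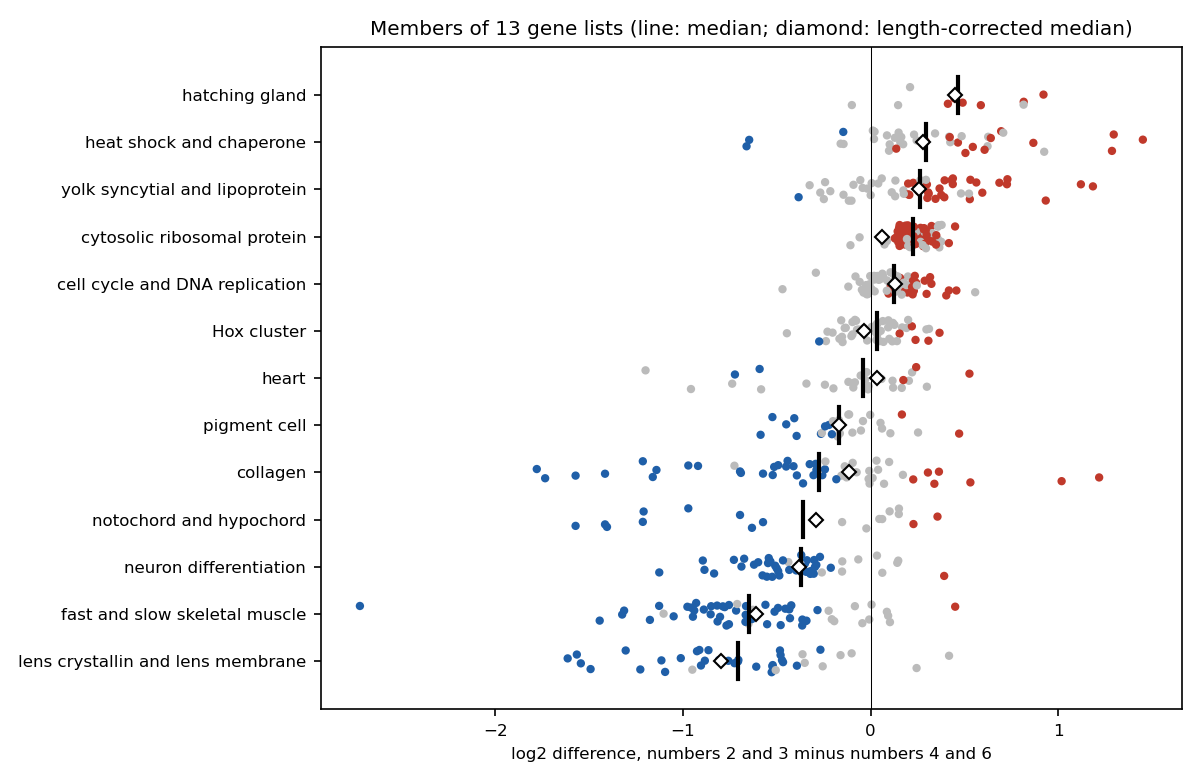
Log2 difference of each tested member of 13 gene lists, numbers 2 and 3 minus numbers 4 and 6; red and blue points are genes whose 4 libraries of numbers 2 and 3 all lie above or all below, grey points overlap, lines are medians and open diamonds length-corrected medians. Lens and skeletal muscle members lie mainly to the left of 0 with medians of -0.71 and -0.65; the ribosomal protein median moves from 0.22 to 0.061 with length correction.

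Genes of differentiating neurons were lower in numbers 2 and 3, whereas those of neural progenitors went both ways. Among 49 tested neuron genes 38 were wholly lower and 1 wholly higher, at a median of -0.37 (-0.38 after length correction). The GABA-synthesizing enzyme gad2 was at 23.6, 22.3, 16.4 and 19.999 CPM in numbers 2 and 3 against 43.2, 45.5, 46.3 and 43.6 CPM (-1.13 ± 0.086). Mutant 2 was the lowest library, and the 4 libraries of numbers 4 and 6 lay within a narrow band. The gamma synuclein sncga had 23.2, 34.2, 22.7 and 36.697 against 58.6, 50.6, 55.1 and 51.0 CPM (-0.88 ± 0.17), and within numbers 2 and 3 both libraries of number 3 were the higher. Choline acetyltransferase chata (-0.89 ± 0.19) and the glycine transporter slc6a5 (-0.83 ± 0.16) were lower in numbers 2 and 3 too. Of 40 progenitor and Notch genes, 11 were wholly lower and 4 wholly higher, with a median of -0.060 (-0.0091 in wt alone and -0.18 in mutant alone). The lower ones included insm1a, a zinc finger factor of newborn neurons, at 93.0, 90.8, 78.0 and 82.7 against 149, 144, 159.6 and 152 CPM (-0.82 ± 0.062), and fabp7a, a radial glial lipid-binding protein, at 176, 161, 167 and 163 against 286, 268, 284 and 294 CPM (-0.76 ± 0.054). The receptor notch1b was at 268 ± 26.6 against 406 ± 51.3 CPM (-0.60 ± 0.090, or -0.33 after length correction). In the opposite direction the proneural factor atoh1a, which marks the hindbrain rhombic lip, was at 29.5, 26.1, 25.6 and 24.7 against 13.3, 17.1, 15.2 and 18.3 CPM (0.74 ± 0.099), although its counts were not whole in any library. Synaptobrevin vamp2, a synaptic vesicle protein, had one of the widest separations of the table relative to its spread: 15.6, 15.9, 14.9 and 15.6 CPM in numbers 2 and 3 and 25.5, 25.9, 25.9 and 25.2 CPM in numbers 4 and 6 (-0.73 ± 0.067).

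Several matrix genes of the notochord sheath and of cartilage were low in numbers 2 and 3, while other members of their lists went the other way. The type II collagen gene col2a1a was at 531, 534, 489 and 595 CPM in numbers 2 and 3 and 1657, 1492, 1694 and 1548 CPM in numbers 4 and 6 (-1.57 ± 0.067, or -1.40 after length correction). Its 4 libraries on each side were close together and the sides were 2.97-fold apart. The fibril partner col11a2 was at 67.7, 75.2, 74.3 and 92.4 against 276, 231, 298 and 254 CPM (-1.78 ± 0.085), and col9a1b, a type IX collagen chain, at 122, 147, 134 and 169.9 against 381, 349, 398 and 399 CPM (-1.41 ± 0.079). For both, mutant 3 was the highest of the low side. The matrilin matn3a (13.9 ± 4.14 against 49.5 ± 3.40 CPM, -1.83 ± 0.19), the proteoglycan core gene acana (1.84 ± 0.304 against 5.84 ± 0.545 CPM, -1.67 ± 0.15), col9a2 (-1.21 ± 0.064), epyc, the small proteoglycan epiphycan (-1.40 ± 0.20) and matn4 (-0.55 ± 0.055) were lower in numbers 2 and 3. Of 18 notochord and hypochord genes 9 were wholly lower and 2 wholly higher (median -0.36, -0.23 in wt alone, -0.40 in mutant alone, -0.29 after length correction). The 9 lower members were the collagen chains col2a1a, col8a1a, col9a1a, col9a1b, col9a2 and col27a1b, the matrilin matn3b, epyc and ucmab, given here in full after their values were seen. The 2 wholly higher members are not named here. The notochord marker shha overlapped, at 40.7 to 51.5 against 48.6 to 51.2 CPM not scaled further. The gene col2a1a counts in the notochord, cartilage and collagen lists alike. The 28 cartilage and fin genes divided into 6 wholly higher and 7 wholly lower, with a median of -0.017. Among 51 collagen genes 27 were wholly lower and 7 wholly higher, with a median of -0.28. Collagen genes are long, and after length correction the median was -0.12. The abundant type I chain col1a1a overlapped between the sides, at 3362 ± 118 and 3752 ± 269 CPM (-0.16 ± 0.055). The type XXVIII chain col28a2a went the other way, at 398, 425, 435 and 425 CPM in numbers 2 and 3 and 213, 219.9, 200.4 and 198 CPM in numbers 4 and 6 (1.02 ± 0.056), with all 4 libraries of each side within a narrow band, although its counts were not whole.

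Pigment cell genes leaned lower in numbers 2 and 3, whereas the heart and tail bud lists held no larger share of separated members than the table as a whole. Of 27 pigment cell genes 10 were wholly lower in numbers 2 and 3 and 2 wholly higher (median -0.17), beside 18% and 16.2% of all genes. The receptor csf1ra, used by xanthophores and macrophages, was at 12.2, 12.3, 12.7 and 11.12 against 16.0, 18.8, 19.0 and 19.0 CPM (-0.59 ± 0.086), and mlpha, which links melanosomes to their motor, at 4.04, 4.90, 5.57 and 4.87 against 7.60, 5.73, 7.53 and 6.77 CPM (-0.52 ± 0.12). The 28 heart genes had 3 members wholly higher and 2 wholly lower, with a median of -0.041 that became 0.032 with length correction. The transcription factor gata5 was higher in numbers 2 and 3, at 26.3 ± 1.83 against 18.2 ± 1.48 CPM (0.53 ± 0.077), and so was the ventricular myosin vmhc, at 58.7 ± 5.84 against 49.5 ± 1.24 CPM (0.24 ± 0.063). The actin actc1a, which skeletal muscle also uses, was lower at 915 ± 60.0 against 1379 ± 127 CPM (-0.59 ± 0.063), as was cacna1c, a calcium channel subunit (-0.72 ± 0.16). Of 26 tail bud genes 3 were wholly higher and 4 wholly lower. The T-box gene ta was lower in numbers 2 and 3, at 11.7, 12.9, 10.3 and 14.6 against 19.2, 17.5, 18.6 and 19.99 CPM (-0.61 ± 0.10), and the retinoic acid-degrading enzyme cyp26a1 was higher, at 32.2, 29.7, 30.5 and 30.2 against 23.02, 24.1, 18.0 and 22.4 CPM (0.49 ± 0.081). Hox genes, at 48 tested, had a median of 0.032 with 5 wholly higher and 1 wholly lower. After length correction the median was -0.034.

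Hatching gland genes were higher in numbers 2 and 3. Of 10 tested members 6 were wholly higher and 0 wholly lower, at a median of 0.47 (0.45 in wt alone and 0.50 in mutant alone). After length correction the median was 0.45. The hatching protease he1a was at 2432, 2063, 2880.4 and 2584 CPM in numbers 2 and 3 and 1800.0, 1672, 1877 and 1706 CPM in numbers 4 and 6 (0.49 ± 0.073). Its relative he1b had 584, 512, 502 and 448 against 393, 227, 287 and 254 CPM (0.82 ± 0.16), and wt 4 was the highest of the low side. The cathepsin ctslb, under 1 of the 2 gene IDs that carry this symbol, was at 983, 887, 1175 and 1066 against 576, 471, 686 and 429.9 CPM (0.92 ± 0.14). Counts of these 3 protease genes were not whole. The gland's transcription factor klf17, whose counts were whole in 7 of the 8 libraries, was at 22.6, 23.9, 31.0 and 30.5 against 18.3, 14.6, 21.0 and 17.4 CPM (0.59 ± 0.089), with both mutant libraries of numbers 2 and 3 above both wt libraries.

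Genes of the yolk syncytial layer and of lipid transport were mostly higher in numbers 2 and 3. Of 54 tested members 28 were wholly higher and 1 wholly lower, with a median of 0.26 (0.18 in wt alone, 0.33 in mutant alone, 0.26 after length correction). The glucose-6-phosphatase subunit g6pca.2 was at 84.7, 85.1, 74.4 and 79.4 CPM in numbers 2 and 3 and 35.7, 39.9, 34.2 and 32.7 CPM in numbers 4 and 6 (1.18 ± 0.059). The fatty acid-binding protein fabp2 was at 140.4, 139.5, 202 and 148 against 69.5, 68.1, 68.6 and 82.0 CPM (1.12 ± 0.095), and mutant 2 was the highest library. The retinol-binding gene rbp2a (11.11 ± 1.27 against 5.82 ± 0.518 CPM, 0.93 ± 0.11) and itih3a, an inter-alpha-trypsin inhibitor chain (23.3 ± 2.32 against 14.0 ± 1.74 CPM, 0.73 ± 0.098), were higher as well. The most abundant lipoprotein genes differed little: apoa1b was at 4149 ± 310.1 against 3216 ± 196 CPM (0.37 ± 0.065) and apobb.1 at 11402 ± 539.5 against 9538 ± 954 CPM (0.26 ± 0.065, or 0.55 after length correction, since its transcript is long). Of 30 liver, gut and pancreas genes 10 were wholly higher and 6 wholly lower, beside 16.2% and 18% of all genes. In red cells, 7 of 32 genes were wholly higher and 1 wholly lower, beside 16.2% and 18% of all genes. The red cell list level overlapped between the sides. The embryonic globin hbbe3 was at 929, 869.9, 879 and 711 against 677, 439.6, 454 and 447 CPM (0.75 ± 0.13). The more abundant globin hbbe1.3 overlapped, at 1464 ± 134 against 1424 ± 230 CPM (0.042 ± 0.10). The abundant globin hbae3 overlapped between the sides, with wt 4 as high as the libraries of numbers 2 and 3 (2138, 1939, 2120.2 and 1724 against 2112, 1437, 1522 and 1478 CPM).

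Immune and complement genes held several of the highest values of numbers 2 and 3. The cysteine protease gene ctss2.1, of the cathepsin S family, was at 94.2, 95.6, 118 and 109 CPM in numbers 2 and 3 and 11.3, 32.2, 18.3 and 32.0 CPM in numbers 4 and 6 (2.17 ± 0.35). The 4 high libraries were close together, and within the low side number 4 was below number 6 in both genotypes. The complement gene c3a.3 was at 12.7, 16.4, 14.0 and 12.5 against 2.75, 2.28, 5.38 and 2.74 CPM (2.07 ± 0.23), and the more abundant c3a.1 at 730.1, 798, 905 and 866 against 548, 593, 576 and 579.7 CPM (0.52 ± 0.060). Counts of c3a.3 were whole in only 2 of the 8 libraries. The interferon-inducible GTPase gbp1 was at 14.6, 17.7, 22.4 and 19.5 against 5.36, 6.66, 4.98 and 6.66 CPM (1.65 ± 0.13), with gbp2 (6.05 ± 0.694 against 3.16 ± 0.342 CPM) and gbp4 (2.87 ± 0.704 against 1.08 ± 0.340 CPM) on the same side. The class I gene mhc1zja was on the other side, at 0.332, 0.0301, 0.0633 and 0.321 against 0.533, 0.437, 0.594 and 1.08 CPM (-1.76 ± 0.55). The lists followed to different degrees. Of 30 interferon and antigen presentation genes 6 were wholly higher and 2 wholly lower (median 0.23), beside 16.2% and 18% of all genes. The mean log2 deviation of this list was higher in all 4 libraries of numbers 2 and 3, at 0.030 to 0.14 against -0.15 to -0.054. Of 44 myeloid and inflammatory genes 6 were wholly higher and 6 wholly lower, 13.6% each (median -0.096), and the list level overlapped between the sides. The galectin lgals2b (1.12 ± 0.14) and the chemokine ccl34a.4 (-1.32 ± 0.21) lay on opposite sides within the last list. In CPM not scaled further, the macrophage marker mfap4 lay wholly lower in numbers 2 and 3, at 3.82 to 5.41 against 6.04 to 7.61 CPM. So did csf1ra, at 11.3 to 12.8 against 15.8 to 19.2 CPM. The macrophage markers mpeg1.1 and marco and the neutrophil markers mpx, lyz and npsn overlapped.

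Some chaperones were higher in numbers 2 and 3, while the most abundant ones overlapped between the sides. Of 39 tested members 13 were wholly higher and 3 wholly lower (median 0.29), beside 16.2% and 18% of all genes. The collagen chaperone serpinh1b was at 373, 435, 344 and 477 CPM in numbers 2 and 3 and 117, 200.1, 118 and 163 CPM in numbers 4 and 6 (1.45 ± 0.22). In both pairs of numbers one was higher in both genotypes, number 3 on the high side and number 6 on the low side, and the counts of serpinh1b were not whole. The co-chaperone dnajb1b was at 32.1, 36.73, 30.5 and 36.02 against 10.6, 16.6, 12.03 and 16.4 CPM (1.296 ± 0.14), and the inducible hsp90aa1.2 at 118, 146, 91.7 and 122 against 46.5, 57.3, 35.9 and 55.8 CPM (1.29 ± 0.17). The constitutive chaperones hspa8 (3602 ± 51.3 against 3390.0 ± 150.5 CPM) and hsp90ab1 (3969 ± 39.5 against 3911 ± 153 CPM) overlapped between the sides. Among oxygen-responsive genes, of which 12 of 58 were wholly higher and 11 wholly lower, the directions were mixed. The HIF prolyl hydroxylase egln3 was at 13.7, 28.1, 5.47 and 11.5 against 1.93, 3.45, 2.49 and 1.98 CPM (2.49 ± 0.46) and vhl, which targets HIF for degradation, at 8.83, 8.45, 4.81 and 5.48 against 2.24, 3.16, 2.38 and 2.26 CPM (1.43 ± 0.15). For both, wt exceeded mutant at numbers 2 and 3 within each number. The stress-responsive gene ndrg1b was the reverse of these, at 1.74, 1.44, 1.202 and 2.02 against 7.54, 5.73, 9.34 and 8.75 CPM (-2.28 ± 0.17). Of 54 clock and light-driven genes 10 were wholly higher and 11 wholly lower; the nuclear receptor nr1d2a was at 7.19 ± 1.32 against 13.5 ± 2.25 CPM (-0.90 ± 0.15) and the DNA repair gene ddb2 at 11.2 ± 0.506 against 6.59 ± 1.40 CPM (0.78 ± 0.13).

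Lists of proliferation and of housekeeping complexes had small median differences, and the medians of most of these lists changed with the length correction. Of 60 cell cycle and DNA replication genes 20 were wholly higher in numbers 2 and 3 and 0 wholly lower, beside 16.2% and 18% of all genes. Their median was 0.12, or 0.13 after length correction. The replication factors gins2 (15.6 ± 0.803 against 11.4 ± 0.395 CPM, 0.46 ± 0.078), prim1 (42.9 ± 2.302 against 32.1 ± 2.21 CPM, 0.42 ± 0.068) and gins1 (18.7 ± 1.61 against 14.1 ± 0.696 CPM, 0.40 ± 0.080) were higher in numbers 2 and 3. The proliferation antigen mki67 overlapped (893 ± 50.5 against 880.3 ± 26.0 CPM, 0.020 ± 0.054). Cytosolic ribosomal protein genes, which are short, were wholly higher in 54 of 83 cases and wholly lower in 0, at a median of 0.22. After length correction the median was 0.061. Oxidative phosphorylation genes were wholly higher in 27 and wholly lower in 1 of 92, with a median of 0.18 that became 0.042 after length correction. No direction is given for ribosomal protein and oxidative phosphorylation genes, since the length correction took away most of these medians. Proteasome subunits were wholly higher in 22 and wholly lower in 0 of 39, with a positive median of 0.19, and of 0.10 after correction. Single members varied, in oxidative phosphorylation from a log2 difference of -0.91 to 0.62. Mitochondrially encoded genes were wholly lower in 3 of 13 and wholly higher in 0. With length correction the median went from -0.11 to -0.24.

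For several of the highest and lowest genes the 2 numbers of a side also differed from each other. The annexin anxa6, a calcium-dependent membrane-binding protein and the highest named gene by log2 difference at a mean of at least 5 CPM, was at 21.8, 28.4, 19.8 and 26.9 CPM in numbers 2 and 3. In numbers 4 and 6 it was at 0.224, 5.005, 0.736 and 8.71 CPM, so number 4 was near 0 and number 6 was not (2.86 ± 0.88). The ferroxidase-like gene hephl1b was at 19.1, 17.9, 13.6 and 11.8 against 0.813, 8.21, 0.821 and 10.24 CPM (1.70 ± 0.86) with the same division, and number 1 had 0.357 and 0.139 CPM. In cfp, the complement regulator properdin, the division ran the other way, with 28.9 and 29.2 CPM in number 4 and 3.89 and 6.91 CPM in number 6, against 52.7, 58.0, 61.0 and 62.8 CPM in numbers 2 and 3 (1.72 ± 0.65), from counts that were not whole. The glucocorticoid-responsive chaperone fkbp5 was at 1.86, 1.08, 5.09 and 5.80 against 7.88, 26.2, 10.4 and 14.996 CPM (-2.19 ± 0.66), a wide spread within both sides. In the edgeR fit anxa6, hephl1b, cfp and fkbp5 were not past an adjusted 0.05. Other genes among the highest 12 were epdl2, an ependymin-like gene (44.3 ± 5.11 against 16.7 ± 0.838 CPM, 1.41 ± 0.075), the cytochrome P450 cyp2aa8 (1.35 ± 0.15) and the lysosomal hydrolase aga (26.1 ± 0.791 against 10.4 ± 2.03 CPM, 1.33 ± 0.11). The protease gene sppl2 was among the lowest 12 (3.30 ± 0.816 against 12.6 ± 3.28 CPM, -1.93 ± 0.22).

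Other genes had a wide distance between the sides relative to the spread within them. The acyltransferase-like gene oacyl was at 9.44, 9.74, 10.7 and 10.9 CPM in numbers 2 and 3 and 23.05, 23.4, 23.5 and 24.6 CPM in numbers 4 and 6 (-1.22 ± 0.073). The transporter gene abcc13 (3.99, 3.82, 3.73 and 3.91 against 7.46, 6.997, 7.41 and 6.98 CPM, -0.90 ± 0.10) and KLHL29, a kelch-like gene (4.85, 5.11, 5.03 and 4.87 against 7.94, 7.68, 8.29 and 8.09 CPM, -0.69 ± 0.097), were separated as cleanly at a smaller difference. At the other extreme, 1 gene was at or near 0 on one side only. It was ENSDARG00000104804, which carries a clone-derived name, with at most 3 counts in each library of numbers 4 and 6 and 2.49, 2.49, 2.06 and 2.12 CPM in numbers 2 and 3. Against a floor of 3 counts per library its level was at least 14.7-fold higher in numbers 2 and 3; its counts were not whole, so the value is uncertain, and number 1 was near 0 as well. No gene was near 0 in numbers 2 and 3 and at 2 CPM or more in all of numbers 4 and 6. The gonadal transcription factor dmrt1 was low but separated, at 1.33, 1.08, 1.202 and 1.03 against 0.224, 0.194, 0.255 and 0.174 CPM (2.41 ± 0.32), while the germ cell list of 16 genes had 2 wholly higher and 2 wholly lower.

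Number 1, which the rule did not use, did not sit at one point between the sides. On a scale where 0 is the mean of numbers 4 and 6 and 1 the mean of numbers 2 and 3, its 2 libraries had a median position of 0.15 over the 292 genes higher in numbers 2 and 3 by a log2 value of at least 1. Over the 362 genes lower by as much, the median was 0.62. Number 1 was thus nearer to numbers 4 and 6 for the first set and nearer to numbers 2 and 3 for the second. By gene list, the skeletal muscle genes of number 1 were at a position of 1.05, the notochord genes at 0.89, the lens genes at 0.88 and the neuron genes at 0.66. Yolk and lipoprotein genes were at 0.47, heat shock genes at 0.24 and interferon genes at 0.077. Single genes did the same: crx was at 3.98 and 3.37 CPM in wt 1 and mutant 1, near numbers 2 and 3, and ctss2.1 was at 20.4 and 18.4 CPM, near numbers 4 and 6. Several lists of number 1 lay outside both sides. Red cell, muscle progenitor, photoreceptor and pineal, and pronephros and ionocyte genes were below every compared library in both of its libraries. Cell cycle, neural progenitor, immediate early and Hox genes were above every compared library in both. With only 1 number outside the comparison, this position has no test.

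**Figure D5:**
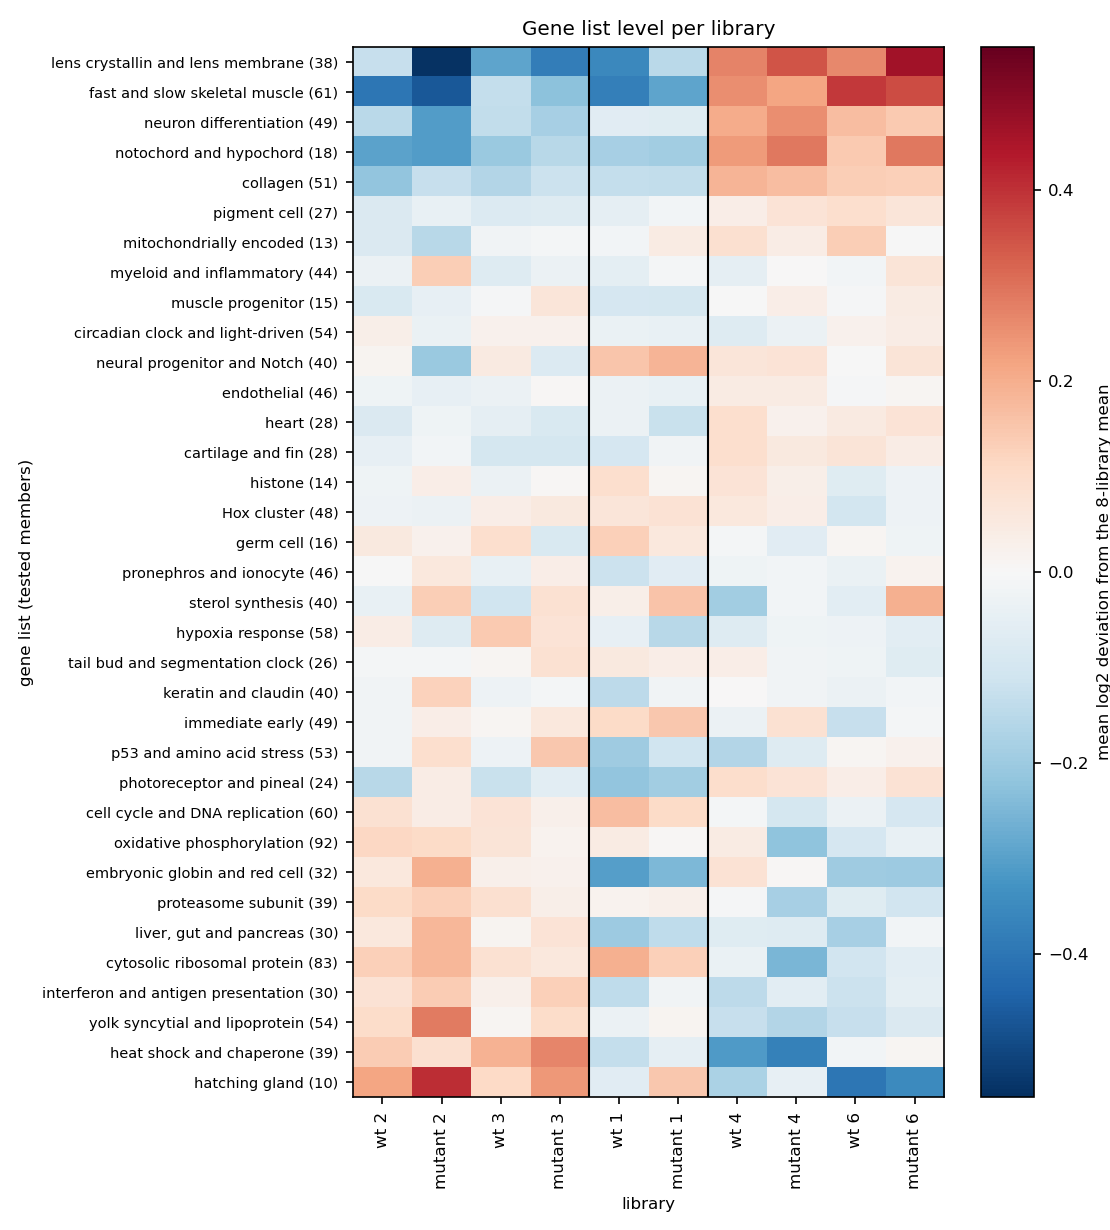
Mean log2 deviation of each gene list in each library from the mean of the 8 compared libraries, with number of tested members in brackets; lists run from the lowest median difference of numbers 2 and 3 at the top to the highest at the bottom. The top rows are blue in the 4 left columns and red in the 4 right columns, and number 1, in the middle, has the colour of numbers 2 and 3 for lens and muscle but not for red cell or liver genes.

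Of the 35 gene lists, 8 had mean levels in all 4 libraries of numbers 2 and 3 above those of all 4 of numbers 4 and 6, 9 had them all below and 18 overlapped. Without length correction, the 8 were hatching gland, cell cycle, heat shock, yolk, interferon, liver, gut and pancreas, ribosomal protein and proteasome. The 9 were skeletal muscle, heart, lens, neuron, notochord, cartilage and fin, pigment cell, mitochondrially encoded and collagen. The heart means were small, at -0.060 and 0.060, as were those of cartilage and fin, at -0.064 and 0.064. Among lists not described above, endothelial genes (6 wholly higher, 7 wholly lower of 46), pronephros and ionocyte genes (11 and 8 of 46), immediate early genes (5 and 6 of 49) and p53 and amino acid stress genes (11 and 5 of 53) overlapped. So did sterol synthesis (6 and 4 of 40), keratin and claudin (13 and 6 of 40) and histone genes (1 and 3 of 14). Of the keratin and claudin genes 32.5% were wholly higher and 15% wholly lower, beside 16.2% and 18% of all genes. With length correction the endothelial median went from -0.055 to 0.039 and the keratin and claudin median from 0.098 to 0.056. The pronephros and ionocyte median went from 0.069 to 0.079 and the histone median from 0.015 to -0.12. An overlap does not show that the levels were alike. In CPM not scaled further, the epidermis markers krt4, krt17, cyt1 and cldni lay wholly higher in numbers 2 and 3, and krt5 overlapped. The ionocyte markers foxi3a, foxi3b and trpv6 lay wholly higher too, while the pronephros marker pax2a lay wholly lower and cdh17 and nphs1 overlapped.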

How the data were processed

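The deposited table gives, for each of 10 libraries, an expected count per gene (estimated, not always whole) and an FPKM value on a log2 scale with an offset of 0.1. Per the submitters' processing notes, the tools included STAR 2.5.3a, RSEM 1.3.0, BWA 0.7.12-r1039 and bedtools, and the builds named are GRCz10 and danRer10; which step used which is not given in the sources used here. Expected counts deposited by the authors were rounded to whole numbers. After filterByExpr and TMM scaling, the robust quasi-likelihood test of edgeR 4.0.16 was fitted to the 8 libraries of numbers 2, 3, 4 and 6 with genotype as a block; p-values were adjusted after Benjamini and Hochberg over all 20757 genes. The script was tested on simulated data. Alternatives used limma 3.58.1 and DESeq2 1.42.0.

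Whether a number pairs libraries was checked from deviations from each genotype's mean: in every one of 5 pairs the correlation was 0.70 or higher. These deviations also hold the difference between the sides, so that value does not measure the dependence within a side. In a limma fit with side and genotype in the model, the correlation within a number was 0.19. Libraries of one number are thus not taken as independent, and the edgeR p-values and SEs, which take them as independent, are too small. The permutation test of the totals took them as independent too. No label says that pools were separate clutches. The members, the gene lists and the tests were chosen with earlier results of these data known. Genes were named by a rule: the 12 highest and 12 lowest log2 differences among genes with ranges apart and a mean of at least 5 CPM, up to 4 members of each list with ranges apart and the 2 most abundant, genes near 0 on one side, and the 6 with the widest gap. Clone-derived symbols were left out of the 12 highest and 12 lowest. Not every gene that the rule picks is described, and those described were taken from it with their values known. List levels are means of log2(CPM + 0.5). Number 1 was on neither side; it entered the principal components, the correlations and distances between libraries, the marker check, its own position and 1 alternative fit. Counts of near-identical copies and of overlapping genes are uncertain. Sequences are not printed here.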

Additional observations from a re-analysis of the deposited data

Results flagged for a closer look

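Among 290 groups of 4 libraries examined, covering the totals, the list levels and the genes named, 13 had a library far from the other 3 of its side; chance flags about 1 in 20 groups, or 14.5 here. None of the 13 is given an explanation.

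In numbers 2 and 3, mutant 2 was far from the others for the keratin and claudin list, with a mean log2 deviation of 0.13, where the others lay between -0.028 and -0.013. Its circadian clock list was at -0.037, with the others between 0.022 and 0.032. The same library had 202 CPM of fabp2, with the others at 140 to 148 CPM, and 47.0 CPM of urod, a heme synthesis enzyme, with the others at 39.4 to 40.6 CPM.

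In numbers 4 and 6, wt 4 had 677 CPM of hbbe3 where the others lay between 440 and 454 CPM, and 2112 CPM of hbae3 where they lay between 1437 and 1522 CPM. Both globins were thus high in 1 library of that side. It also had 35.4 CPM of prim1 (the others 30.6 to 31.2 CPM) and 16.0 CPM of csf1ra (the others 18.8 to 19.0 CPM). Mutant 4 had 5.38 CPM of c3a.3 (the others 2.28 to 2.75 CPM). Mutant 6 had 6.46 CPM of lim2.5 (the others 4.90 to 4.96 CPM) and 82.0 CPM of fabp2 (the others 68.1 to 69.5 CPM). The neural progenitor list of wt 6 was at -0.0024, with the others between 0.066 and 0.076, and its vhl level was 3.16 CPM (the others 2.24 to 2.38 CPM).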

How the results depend on the processing

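The number of genes past an adjusted 0.05 was 7195. With the replicate block, that is with the number as a random effect, it was 6095, and changing the scaling, filter, tool or values left it within 1.5 times. It was 4338 with the counts of a number summed, 2101 in wt alone and 3423 in mutant alone, settings with fewer libraries. Leaving out a number or a library gave 3457 to 7585 calls, the lowest without number 2. Genes with ranges apart numbered 7097, and 14285 with numbers summed, 12178 in wt alone, 13149 in mutant alone and 7863 to 11177 with libraries left out, since fewer values overlap less. The median position of number 1, 0.41 over both directions, was 0.53 with a log2 minimum of 0.5 and 0.17 with 2; the cause was not tested. With a limit of 10 counts, 3 genes were near 0 on one side, and with a minimum of 5 CPM the number was 0. The difference between the shortest and longest deciles of genes, 0.32, became -0.027 with the length correction, by construction, and was 0.27 to 0.38 with libraries left out. The difference in mean total ran from -2.88 to 7.30 M with libraries left out. These last 2 sets of alternatives were added after seeing the data.

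List medians changed sign where they were near 0. The heart median was 0.0073 and 0.0090 on log2(FPKM + 1) and log2(FPKM + 0.1), 0.024 in mutant alone and 0.032 with length correction. The cartilage and fin median was 0.062 in mutant alone and -0.055 to 0.012 with libraries left out, positive without wt 2, wt 3 or wt 6. The photoreceptor and pineal median was -0.13 in wt alone and -0.013 to 0.17 with libraries left out, negative without number 6. With length correction the Hox median was -0.034, the histone median -0.12 and the endothelial median 0.039, each with its sign changed, as were the Hox median in mutant alone, -0.0078, and the histone median in wt alone, -0.041. The cause was not tested. Of 2616 recomputed values of named genes, 2440 moved by less than the spread within a side. None changed sign among genes with ranges apart, and sign changes of genes that overlapped were not counted. The overlapping col1a1a, for example, went from -0.16 to 0.011 with length correction.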
